A study of Homo sapiens with 2 samples.

Results

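The cadherins and protocadherins described here were the 87 genes whose symbol begins with CDH followed by a number, or with PCDH, leaving out CDH1 and CDH2, among 19607 genes measured in the human castration-resistant prostate cancer line CWR22rv1. Of these genes, 53 belong to the PCDHA, PCDHB and PCDHG clusters on chromosome 5, with 15, 16 and 22 members, and 34 lie elsewhere. RNA was sequenced from cells with knockout of Akt1 and Akt2, called Akt1/2 DKO, and from cells labelled wild type, called control. The DKO cells had received px330 plasmids with AKT1 and AKT2 guides for CRISPR/Cas9 together with a plasmid carrying puromycin resistance, and monoclonal cells were isolated after puromycin. The labels name no clone, and they do not say whether the control cells went through transfection, selection or cloning, so an effect of the knockout and a difference of the clone cannot be told apart. Both kinds of cells were grown in RPMI medium with FBS.

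Cadherins are membrane proteins that join neighbouring cells through calcium-dependent contacts of their outer repeats. Type I and type II classical cadherins bind catenins and through them actin, whereas protocadherins have other cytoplasmic tails and are best known in the nervous system. In the PCDHA and PCDHG clusters each variable first exon has its own promoter and is spliced to shared constant exons, while PCDHB genes are encoded by a large exon of their own. Of the genes outside the clusters, CDH13, CDH16, CDH17, CDH23 and CDH26 are not classical cadherins, and neither are the protocadherins.

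Each condition had 1 library, of 9970820 reads assigned to genes in control and 10718650 in DKO, so there was no replicate check and no p-value. A fold is the ratio of the reads after TMM scaling, and its exact 95% interval covers counting error only. A gene was tested when both libraries summed to 10 reads or more, and called when its ratio reached 1.5-fold. A gene near 0 in 1 library can pass this filter through the other alone, and is then almost bound to be called. Where a library had 0 reads, 3 reads stood in for them in calls and medians. The fold given for such a gene is the end of its interval nearer to 1. The targeted genes were lower in DKO, with 2645 reads in control and 591 in DKO for AKT1, 4.96-fold lower (4.54 to 5.43), and 2362 and 667 reads for AKT2, 3.93-fold lower (3.60 to 4.28). Of the 10 luminal prostate markers examined, none was at 0 in either library, and their sum was 2289 CPM, the unit of reads scaled to library size by TMM, in control and 3611 CPM in DKO. The sum of 6 neuronal markers was 16.2 and 72.9 CPM, and that of 8 fibroblast markers was 106 and 20.5 CPM, with VIM falling from 897 to 84 reads. The 6 endothelial markers had 6 and 10 reads in all, the 5 leukocyte markers 6 and 11, and the 3 basal epithelial markers 2 and 0. The part of these shifts in the results below was not tested, and in bulk RNA fewer cells expressing a gene and less RNA per cell cannot be told apart.

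The cluster genes differ in how much of their transcript they share. All 15 PCDHA genes were annotated with the same 3 constant exons and all 22 PCDHG genes with another 3, which made up a median of 54.5% of the PCDHA transcripts and 47.3% of the PCDHG transcripts. Reads from these exons do not tell which promoter was used, so a count of a PCDHA or PCDHG gene depends on how the counting shared them. In control, 42 of the 87 genes had an estimated count that was not whole, and these were 14 PCDHA, 14 PCDHB and 14 PCDHG genes. In DKO there were 35 such genes, 11 in PCDHA, 8 in PCDHB, 13 in PCDHG and 3 outside the clusters. PCDHB genes shared no annotated exon but also had such counts. The first constant exons, shown because every member of the cluster carries them, are at chr5:140978949-140979007 for PCDHA and chr5:141494807-141494865 for PCDHG (GRCh38, plus strand, GENCODE annotation).
PCDHA constant exon 1: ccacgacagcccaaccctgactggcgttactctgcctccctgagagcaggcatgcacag
PCDHG constant exon 1: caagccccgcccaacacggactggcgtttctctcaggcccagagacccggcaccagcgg

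The promoters also differ between clusters. Windows from 250 bases before to 50 bases after the start site were taken from RefSeq (GRCh38.p14), where 69 of the 87 genes and 47 of the 53 cluster genes had an entry. CGCT, the core of the motif known from clustered protocadherin promoters, stood on either strand in 51 of 52 cluster windows (98.1%), in 29 of 36 windows of the other members (80.6%) and in 70.0% of all 35116 windows. The longer GTGGCGCT, which contains CGCT, was in 13 of 14 PCDHB windows (92.9%), in none of the 13 PCDHA or 25 PCDHG windows, and in 1.15% of all windows. TGTCGCT, which also contains CGCT, was in 10 of 13 PCDHA windows, 1 of 14 PCDHB windows, 3 of 25 PCDHG windows and 1.76% of all windows. Both longer motifs were picked after the promoters had been read, and a match is a description of letters only. Promoters of 4 genes that differed between the libraries are printed on the plus strand, with the named letters in capitals. These are GTGGCGCT for PCDHB5 (chr5:141134956-141135255) and PCDHB8 (chr5:141177540-141177839), and TGTCGCT for PCDHA8 (chr5:140840937-140841236). For PCDHAC2 (chr5:140966226-140966525) they are CGCT, or AGCG where it lies on the other strand. The PCDHAC2 window held neither longer motif. Since CGCT alone is in 70.0% of all windows, its capitals do not mark a cluster motif.
PCDHB5: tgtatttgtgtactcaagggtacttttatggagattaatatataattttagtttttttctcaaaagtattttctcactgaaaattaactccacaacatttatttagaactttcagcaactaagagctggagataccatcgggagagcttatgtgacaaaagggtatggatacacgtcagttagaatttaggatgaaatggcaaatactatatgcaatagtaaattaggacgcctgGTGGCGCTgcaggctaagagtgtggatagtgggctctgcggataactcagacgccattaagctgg
PCDHB8: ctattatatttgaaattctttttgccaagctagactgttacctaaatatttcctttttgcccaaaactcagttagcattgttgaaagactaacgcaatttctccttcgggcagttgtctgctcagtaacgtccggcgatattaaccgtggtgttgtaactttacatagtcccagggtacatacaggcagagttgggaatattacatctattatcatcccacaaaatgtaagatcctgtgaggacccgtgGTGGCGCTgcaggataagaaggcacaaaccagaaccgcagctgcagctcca
PCDHA8: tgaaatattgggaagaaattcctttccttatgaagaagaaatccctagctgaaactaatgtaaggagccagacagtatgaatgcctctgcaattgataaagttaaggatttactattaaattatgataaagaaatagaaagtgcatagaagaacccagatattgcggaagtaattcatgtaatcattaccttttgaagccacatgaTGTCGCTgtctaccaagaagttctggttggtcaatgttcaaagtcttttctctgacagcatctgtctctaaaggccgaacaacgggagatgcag
PCDHAC2: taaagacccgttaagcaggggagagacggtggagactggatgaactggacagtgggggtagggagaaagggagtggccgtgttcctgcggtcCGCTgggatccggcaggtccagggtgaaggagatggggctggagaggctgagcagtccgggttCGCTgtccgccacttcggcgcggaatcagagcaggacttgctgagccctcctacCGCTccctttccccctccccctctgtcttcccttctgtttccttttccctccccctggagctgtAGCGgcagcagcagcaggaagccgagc

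Of the 87 genes, 8 had 0 reads in both libraries, 12 had 1 to 9 reads and 67 were tested. Among the tested genes 43 were called (64.2%), 16 higher and 27 lower in DKO, where 30.9% of all 13318 tested genes were called, 15.9% higher and 15.0% lower. These shares depended on depth. Among genes with 10 to 99 reads, 24 of 37 members were called (64.9%) against 66.5% of all such genes, and among genes with at least 100 reads 19 of 30 members were called (63.3%) against 23.2%. The median log2 fold change was -0.11 over the members and 0.01 over all genes, while the median of its size without sign was 0.83 and 0.33. Outside the clusters 11 of 19 tested genes were called (57.9%), 6 higher and 5 lower, with a median of 0.20. In the clusters 32 of 48 were called (66.7%), 10 higher and 22 lower, with a median of -0.15. When the interval also had to leave out a ratio of 1, the calls were 11 outside the clusters and 25 within them, against 27.0% of all genes. At 2-fold, 30 members were called against 17.9% of all genes.

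**Figure D1:**
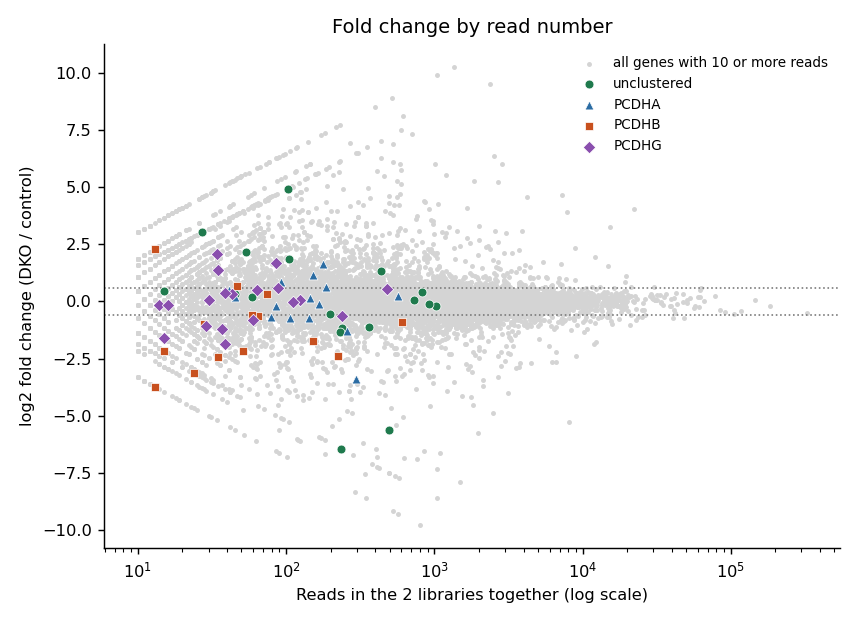
Log2 fold change of DKO over control (vertical axis) against the reads of the 2 libraries together (horizontal log axis) for all tested genes in grey and the cadherins and protocadherins in colour, with dotted lines at 1.5-fold and PCDH11Y not drawn. All genes spread widely at low read numbers and narrow with depth, and members with 100 or more reads, of which 19 of 30 were past 1.5-fold, lie outside the narrow band more often than the 23.2% of all such genes.

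Of the 13 type II classical cadherins, 5 were tested and 4 were called (80.0%, against 30.9% of all tested genes). Among the 4 with at least 100 reads 3 were called, where 23.2% of all such genes were called. CDH12 and CDH22, with 3 and 0 reads in control, passed the filter only through DKO, and CDH12 reached 100 reads in the same way. Their calls were thus nearly fixed by the filter, and these shares are no evidence about type II genes. CDH7, a type II cadherin of neural crest and brain, had 485 reads in control and 11 in DKO, 48.9-fold lower (27.1 to 98.6). Its nearest expressed neighbours on chromosome 18 were far off. SERPINB8, 1730 kb away, had 24 and 56 reads and DSEL, 1616 kb away, had 281 and 468, both more in DKO. CDH6, known as kidney cadherin, had 161 and 70 reads, 2.55-fold lower (1.91 to 3.43). CDH12, a brain cadherin, went the other way with 3 reads in control and 100 in DKO, a ratio of 30.1 (10 to 148). CDH22, also expressed in brain, had 0 and 27 reads and was at least 6.16-fold higher in DKO. CDH24, which binds catenins, had 457 and 465 reads and was 1.09-fold lower (0.956 to 1.24), an interval that includes no change. Thus 2 type II genes were higher, 2 were lower and 1 was not called. On the FPKM scale, which divides by length and allows levels of genes to be compared, CDH7 had 12.18 in control and 0.31 in DKO, while CDH24 had 13.40 and 12.37.

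Neither of the tested type I cadherins was called. CDH3, the P-cadherin of basal epithelium, had 335 reads in control and 490 in DKO, 1.32-fold higher (1.15 to 1.52), but its FPKM was 13.50 and 12.63, so its direction turned with the unit. CDH4, or R-cadherin, had 6 and 9 reads, and CDH15, a muscle cadherin, had 0 and 1. For scale, CDH1, the E-cadherin of epithelia, had 5349 and 3343 reads, 1.77-fold lower (1.70 to 1.85), and CDH2, or N-cadherin, had 0 and 46, at least 10.8-fold higher. CDH3 and CDH1 are neighbours on chromosome 16, 14.6 kb apart.

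Both tested cadherins without classical tails were called lower in DKO, where 15.0% of all tested genes were called lower. CDH17, the liver-intestine cadherin that works without catenins, had 236 reads in control and 0 in DKO, at least 70.4-fold lower. It passed the filter through its control reads alone. Its nearest expressed neighbours on chromosome 8 had 118 and 106 reads (PDP1, 201 kb away) and 34 and 24 reads (GEM, 31.95 kb away). Neither interval left out a ratio of 1. CDH23, a part of the tip link of inner ear hair cells, had 242 and 122 reads, 2.20-fold lower (1.76 to 2.76). CDH23 ends 0.351 kb from PSAP, a saposin precursor gene on the opposite strand that had 7251 and 3489 reads, a log2 fold change of -1.20 (-1.26 to -1.15). The sources used here do not say whether the counting used strand, and reads of both genes near this boundary cannot be told apart. PCDH15, the partner of CDH23 in the tip link, had 0 and 1 reads.

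The unclustered protocadherins moved both ways, with 4 of 10 tested genes called higher and 1 lower, where 15.9% of all tested genes were called higher and 15.0% lower. Among the delta-1 group, PCDH11X had 21 reads in control and 83 in DKO, 3.56-fold higher (2.19 to 6.06). Its near-identical copy on the Y chromosome was also called higher, and reads of these copies can be assigned to either. PCDH1, an adhesion gene of airway epithelium, had 336 and 390 reads, 1.05-fold higher (0.902 to 1.22), and PCDH7 had 524 and 506, 1.15-fold lower (1.01 to 1.30). PCDH9 had 113 and 85 reads and was 1.47-fold lower (1.10 to 1.98), just short of the threshold. The delta-1 genes with the most reads were thus those with little difference.

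Among the delta-2 group, PCDH10, a gene often methylated in tumours, had 9 reads in control and 45 in DKO, 4.51-fold higher (2.18 to 10.5). PCDH19, a neuronal gene of the X chromosome mutated in epilepsy, had 158 and 79 reads, 2.22-fold lower (1.68 to 2.94). PCDH17 had 26 and 33 reads, with a log2 fold change of 0.20. Of the remaining protocadherins, PCDH20 had 115 and 322 reads, 2.53-fold higher (2.04 to 3.15). Its expressed neighbours on chromosome 13 were TDRD3, 836 kb away, with 180 and 239 reads and a log2 fold change of 0.26 (-0.02 to 0.55), and PCDH9, 4887 kb away, given above. PCDH12, known from endothelium, had 19 and 26 reads.

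**Figure D2:**
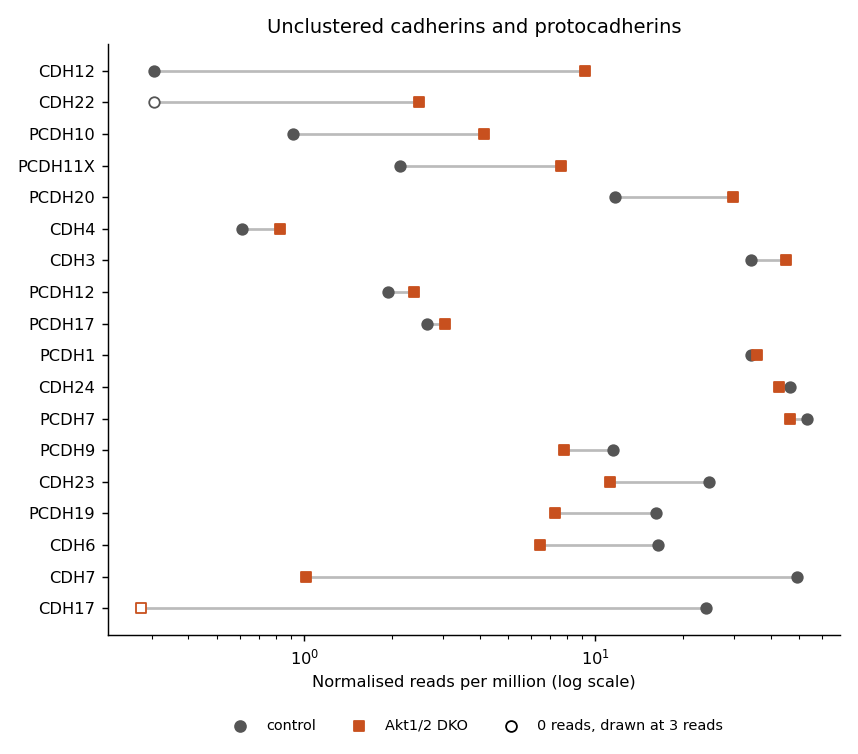
Normalised reads in CPM (log axis) in control (circles) and Akt1/2 DKO (squares) for 18 tested genes outside the clusters, ordered by fold change, with a grey line joining the libraries and PCDH11Y not drawn. Open symbols stand for 0 reads and are drawn at 3 reads: CDH12 and CDH22 at the top are near the floor in control, and CDH7 and CDH17 at the bottom are near it in DKO.

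The remaining genes outside the clusters were at or near 0. CDH5, the VE-cadherin of endothelium, and CDH8, CDH9, CDH13, CDH16, CDH20 and CDH26 had 0 reads in both libraries, which allows up to 0.306 CPM in control and 0.276 in DKO. CDH10, CDH11, CDH18, CDH19, PCDH8 and PCDH18 had between 0 and 2 reads in control and between 1 and 8 in DKO. The highest of these was CDH18 with 0 and 8 reads. No fold is given for genes under 10 reads.

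The PCDHA cluster kept nearly the same total but changed its makeup. Its 15 genes summed to 1298 reads in control and 1245 in DKO, or 132 and 114 CPM, 1.16-fold lower (1.07 to 1.25). The C-type gene PCDHAC2, whose promoter is printed above, had 267 and 28 reads and was 10.6-fold lower (7.15 to 16.2). It made up 20.6% of the cluster's reads in control (18.4 to 22.9, exact binomial) and 2.25% in DKO (1.5 to 3.23). Without PCDHAC1 and PCDHAC2, the other 13 genes had 984 and 1185 reads, 1.09-fold higher (0.997 to 1.18). The other C-type gene, PCDHAC1, had 47 and 32 reads, 1.63-fold lower (1.02 to 2.64).

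The other PCDHA genes moved in both directions, and those called higher lay close together. PCDHA4 had 69 and 117 reads, 1.53-fold higher (1.13 to 2.09), PCDHA5 had 44 and 109, 2.23-fold higher (1.56 to 3.25), and PCDHA6 had 31 and 62, 1.80-fold higher (1.15 to 2.87). PCDHA7, with 20 and 25 reads, was not called. PCDHA8 had 40 and 138 reads, 3.11-fold higher (2.17 to 4.54). These 5 adjacent genes, grouped after their values were seen, summed to 204 and 451 reads, 1.99-fold higher (1.69 to 2.36). PCDHA10 had 176 and 80 reads, 2.44-fold lower (1.86 to 3.22), PCDHA11 had 86 and 57, 1.67-fold lower (1.18 to 2.38), and PCDHA1 had 64 and 43, 1.65-fold lower (1.10 to 2.49). The remaining 5 genes were not called: PCDHA2 had 44 and 42 reads, PCDHA3 had 65 and 80, PCDHA9 had 16 and 25, PCDHA12 had 83 and 85, and PCDHA13 had 246 and 322. Of these, PCDHA3 was 1.11-fold higher (0.790 to 1.56), PCDHA12 was 1.08-fold lower (0.790 to 1.48) and PCDHA13 was 1.18-fold higher (0.997 to 1.40), and each interval included no change. PCDHA13 was the leading gene in DKO with 25.9% of the reads (23.5 to 28.4), after 19.0% in control (16.9 to 21.2). In all, 30.0% of the cluster's reads would have to move between genes to turn one makeup into the other. Of the 15 shares, 7 had intervals that did not overlap. The same measures were 23.5% and 5 of 16 shares for PCDHB, and 21.1% and 5 of 22 for PCDHG, so a changed makeup was not particular to PCDHA. The intervals do not cover how reads of the constant exons were assigned.

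The PCDHB cluster was lower as a whole. Its 16 genes summed to 940 reads in control and 468 in DKO, or 95.7 and 43.0 CPM, 2.23-fold lower (1.99 to 2.49). Of 14 tested genes 13 were called, 11 lower and 2 higher, and for 8 of the lower and 1 of the higher genes the interval left out a ratio of 1. Of these 14 genes 11 had fewer than 100 reads, a depth at which 66.5% of all genes were called. The 3 PCDHB genes with at least 100 reads were all called lower, at a depth where 23.2% of all genes were called. PCDHB2 had 382 and 224 reads, 1.89-fold lower (1.60 to 2.24), PCDHB8 had 184 and 39, 5.23-fold lower (3.69 to 7.59), and PCDHB13 had 113 and 38, 3.30-fold lower (2.26 to 4.90).

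The shallower PCDHB genes were mostly lower too. PCDHB3 had 41 and 10 reads, 4.55-fold lower (2.24 to 10.2), PCDHB16 had 29 and 6, 5.36-fold lower (2.19 to 15.8), and PCDHB5 had 24 and 0, at least 6.67-fold lower. Also called lower were PCDHB4 with 12 and 3 reads, PCDHB7 with 12 and 1, PCDHB10 with 18 and 10, PCDHB14 with 38 and 27, and PCDHB15 with 34 and 25. PCDHB9 was called higher with 2 and 11 reads, and PCDHB11 with 17 and 30. In the deposited FPKM, PCDHB16, PCDHB15, PCDHB9 and PCDHB11 did not reach 1.5-fold. PCDHB6, with 31 and 43 reads, was not called, PCDHB12 had 3 and 1 reads, and PCDHB1 had 0 in both. PCDHB1 was also the only PCDHB gene with a promoter entry that lacked GTGGCGCT, a motif picked after these promoters had been read. Genes called higher or lower that had an entry carried it, as did PCDHB12, so it does not tell them apart. PCDHB6 and PCDHB11 had no entry. PCDHB2 was the leading gene in both libraries with 40.6% and 47.9% of the cluster's reads. The share of PCDHB8 was 19.6% (17.1 to 22.3) in control and 8.33% (5.99 to 11.2) in DKO, and that of PCDHB6 was 3.30% (2.25 to 4.65) and 9.19% (6.73 to 12.2).

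**Figure D3:**
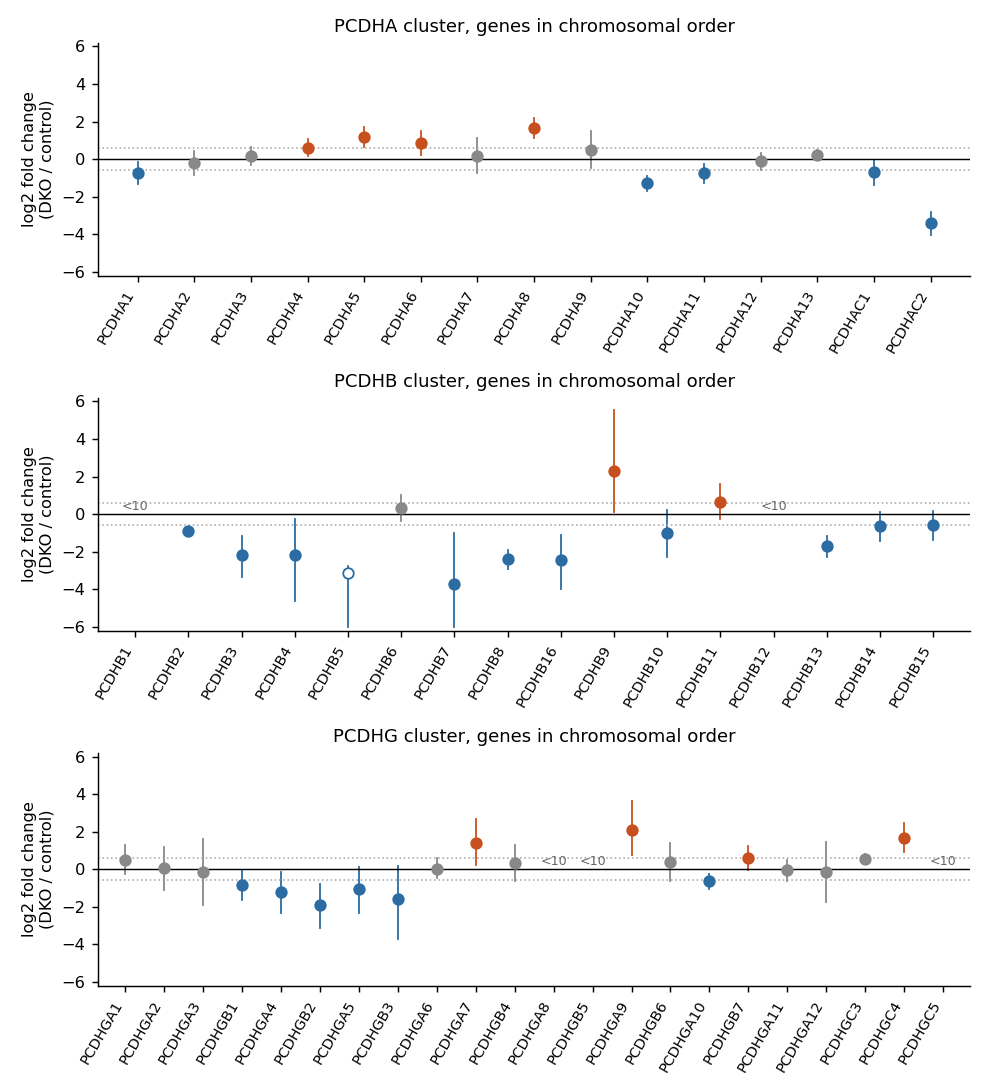
Log2 fold change of DKO over control for each gene of the PCDHA, PCDHB and PCDHG clusters in chromosomal order, with exact 95% intervals for counting error that are clipped at 6 in either direction. Orange and blue mark genes at least 1.5-fold higher and lower, grey marks uncalled genes, the open symbol of PCDHB5 is a bound, and "<10" marks genes under 10 reads: 11 of 14 PCDHB genes lie below the lower dotted line, while the PCDHA and PCDHG genes fall on both sides.

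The PCDHG cluster had 717 reads in control and 877 in DKO, 1.10-fold higher (0.998 to 1.22), an interval that includes no change. Its C-type genes were higher together, with 203 and 368 reads, 1.64-fold higher (1.37 to 1.95), whereas the 12 PCDHGA genes had 368 and 370 reads, 1.10-fold lower (0.952 to 1.28), and the 7 PCDHGB genes had 146 and 139, 1.16-fold lower (0.917 to 1.48). PCDHGC3, the most abundant gene of the cluster, had 183 and 297 reads, 1.46-fold higher (1.21 to 1.77), just short of the threshold. PCDHGC4 had 19 and 67 reads, 3.18-fold higher (1.89 to 5.61), and PCDHGC5 had 1 and 4. The C-type genes of the PCDHA and PCDHG clusters thus had opposite directions: PCDHAC1 and PCDHAC2 were called lower and PCDHGC4 higher.

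Of 19 tested PCDHG genes 10 were called, 4 higher and 6 lower. Among those with 10 to 99 reads 9 of 15 were called (60%), where 66.5% of all such genes were called. Of the 4 with at least 100 reads 1 was called, at a depth where 23.2% of all genes were called. Within the cluster 5 genes in a row were called lower, all with fewer than 100 reads in both libraries together. Whether such a run exceeds what this depth gives was not tested. PCDHGB1 had 37 and 23 reads, 1.78-fold lower (1.03 to 3.14), PCDHGA4 had 25 and 12, 2.31-fold lower (1.12 to 5.05), and PCDHGB2 had 30 and 9, 3.70-fold lower (1.71 to 8.85). The next genes were PCDHGA5 with 19 and 10 reads and PCDHGB3 with 11 and 4, both called with an interval that included no change. Together these neighbours, grouped after their values were seen, had 122 and 58 reads, 2.33-fold lower (1.69 to 3.25). Elsewhere PCDHGA10 had 139 and 98 reads, 1.57-fold lower (1.21 to 2.06). PCDHGA7 had 9 and 26 reads, 2.61-fold higher (1.18 to 6.32), PCDHGA9 had 6 and 28, 4.21-fold higher (1.71 to 12.4), and PCDHGB7 had 33 and 55 and was called higher with an interval that included no change. The uncalled genes were PCDHGA1 with 25 and 39 reads, PCDHGA2 with 14 and 16, PCDHGA3 with 7 and 7, PCDHGA6 with 58 and 66, PCDHGB4 with 18 and 25, PCDHGB6 with 16 and 23, PCDHGA11 with 54 and 58, and PCDHGA12 with 8 and 8. Of these, PCDHGA6 was 1.03-fold higher (0.710 to 1.49) and PCDHGA11 was 1.03-fold lower (0.699 to 1.52). PCDHGA8 and PCDHGB5 stayed under 10 reads. The share of PCDHGC3 was 25.5% (22.4 to 28.9) in control and 33.9% (30.7 to 37.1) in DKO, and that of PCDHGA10 was 19.4% (16.6 to 22.5) and 11.2% (9.17 to 13.4).

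**Figure D4:**
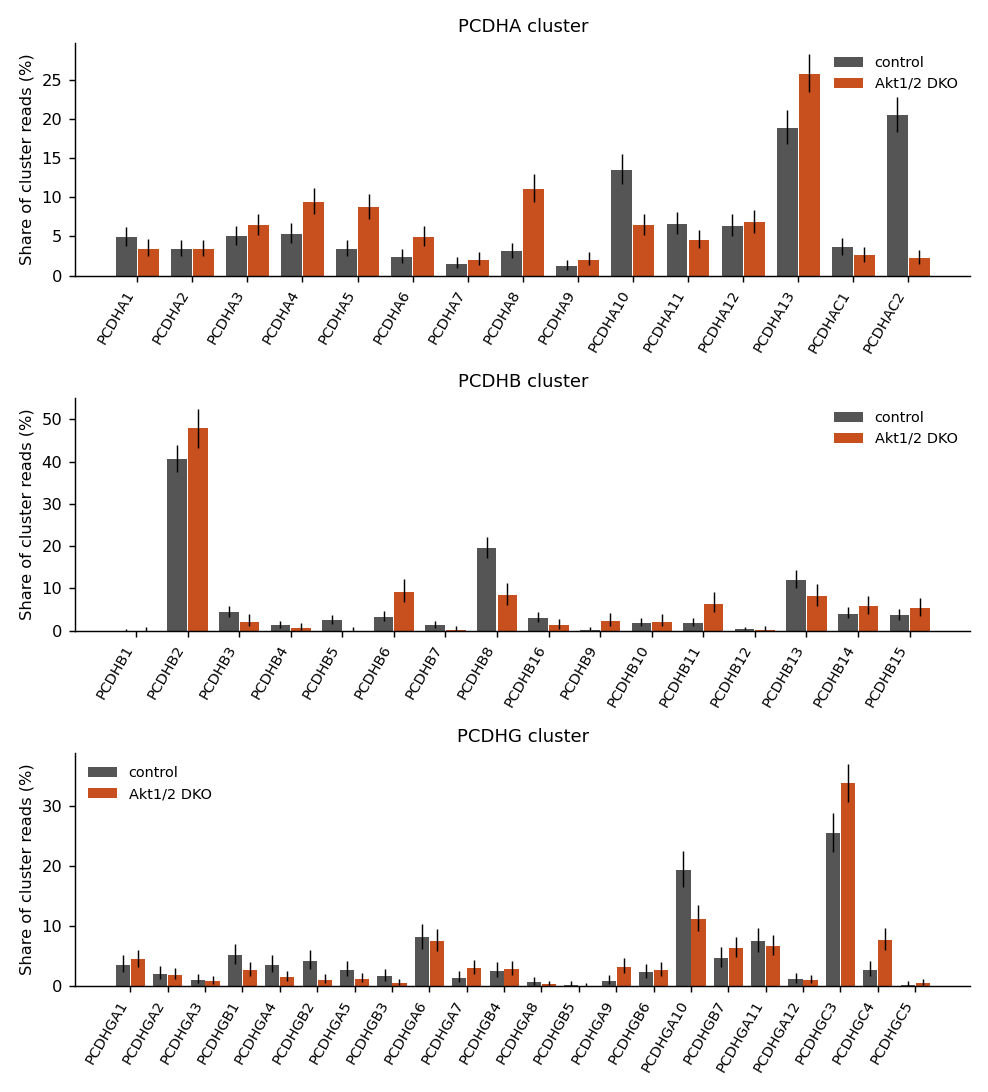
Share of each cluster's reads (%) taken by each gene in control (grey) and Akt1/2 DKO (orange), with exact 95% binomial intervals as error bars. PCDHAC2 drops from 20.6% to 2.25% of the PCDHA reads, PCDHB2 leads its cluster in both libraries, and PCDHGC3 rises from 25.5% to 33.9% of the PCDHG reads.

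Over all 53 genes the clusters had 2955 and 2590 reads, 1.26-fold lower (1.20 to 1.33), the PCDHB cluster being the one with the larger loss. The clusters span chr5:140786136-141512981 (GRCh38), a stretch of 0.727 Mb. Of 30 other genes with at least 50 reads within 1000 kb, 3 were past 1.5-fold, where 25.7% of all genes at that depth were. The log2 fold changes of the 30 genes had a median of 0.09 and ranged from -0.37 to 2.81. TAF7, a general transcription factor gene between the PCDHB and PCDHG clusters, had 996 and 1287 reads and a log2 fold change of 0.22. The median over chromosome 5 was 0.01, and those of chromosomes 8 and 18, which hold CDH17 and CDH7, were -0.20 and -0.19.

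For 4 PCDHB genes the change in the deposited FPKM differed from that in the reads by at least 1 log2 step. PCDHB2 had an FPKM of 49.39 in control and 6.63 in DKO, the first and the seventh highest of the 87 genes, and PCDHB3 had 16.87 and 0.28. Dividing reads by FPKM and by the library total gives the length that the FPKM assumed, which was 776 bases in control and 3152 in DKO for PCDHB2, and 241 and 3332 bases for PCDHB3. For PCDHB16 the length was 5015 and 1191 bases, and for PCDHB9, which has few reads, 1027 and 4521. The FPKM of PCDHB16 was 0.57 and 0.47 and that of PCDHB9 0.21 and 0.22, so neither would be called in that unit. The annotation lists transcripts from 162 to 4126 bases for PCDHB2 and from 162 to 3355 bases for PCDHB3. Among genes with an FPKM of at least 0.3 in both libraries, this length differed by at least 2-fold for 2 of 35 cluster genes (PCDHB2 and PCDHB16) and for 0.639% of all 12207 genes. Summed over the PCDHB cluster, the FPKM fell by 2.62 on the log2 scale and the reads fell by 1.15, or by 1.34 without PCDHB2, a gene left out after its values were seen. The rank of PCDHB2 and PCDHB3 among the genes in control thus rests on the assumed length.

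**Figure D5:**
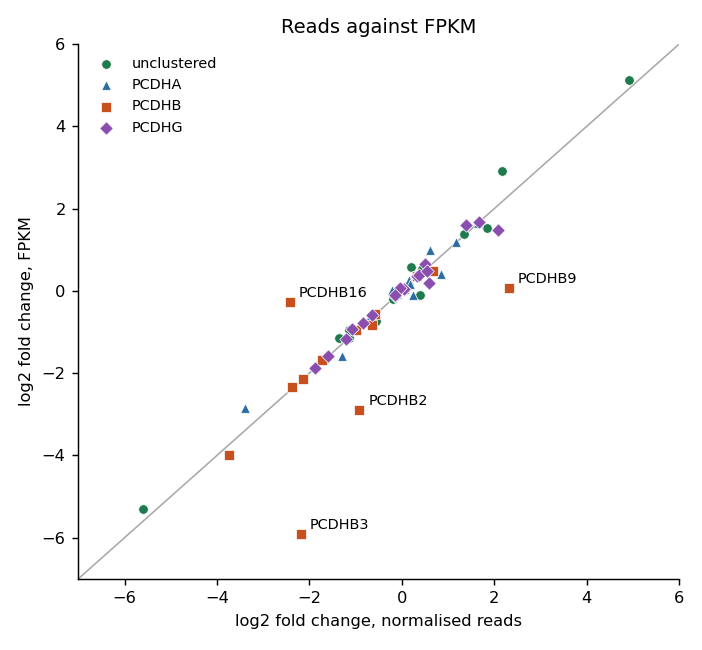
Log2 fold change of DKO over control from FPKM (vertical axis) against that from normalised reads (horizontal axis) for tested members with values above 0 in both libraries and units, with PCDH11Y not drawn and the line of equality in grey. Most genes lie on the line, and the named genes, PCDHB2, PCDHB3 and PCDHB9 below it and PCDHB16 above it, are those where the units differ by at least 1 log2 step.

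Catenins link classical cadherins to actin, and 11 of 24 tested genes of a list of catenins and junction partners were called (45.8%, against 30.9% of all tested genes), 7 higher and 4 lower, with a median log2 fold change of 0.10 (0.01 over all genes). Among those with at least 100 reads 35.0% were called, against 23.2% of all such genes, and all 4 genes with fewer reads were called. CTNNB1, or beta-catenin, had 6885 reads in control and 4266 in DKO, 1.79-fold lower (1.72 to 1.86). PKP2, a desmosomal plakophilin, had 13 and 295 reads, 20.5-fold higher (11.8 to 38.9), and CTNNAL1, related to alpha-catenin, had 440 and 926, 1.90-fold higher (1.69 to 2.13). The actin-binding LIMA1 had 484 and 850 reads, 1.58-fold higher (1.42 to 1.77). NECTIN2, a cell adhesion molecule, had 269 and 178 reads, 1.68-fold lower (1.38 to 2.04), and PDLIM1 and CDC42EP4 were 1.68-fold lower (1.37 to 2.08) and 1.63-fold lower (1.33 to 2.01). The other 4 called genes had fewer than 100 reads. CTNNA1, alpha-catenin, had 4390 and 6470 reads and CTNND1, p120-catenin, 4637 and 4918, and neither passed 1.5-fold.

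Of 24 known or candidate regulators of the protocadherin clusters, 3 were called (12.5%), with a median of 0.03. All 24 had at least 100 reads, where 23.2% of all genes were called. CTCF, which binds the cluster promoters, had 1360 and 1515 reads, a log2 fold change of 0.01, and the cohesin subunit RAD21 had 4042 and 4251. WAPL, which releases cohesin from DNA, had 960 and 2581 reads, 2.43-fold higher (2.25 to 2.61). The DNA methyltransferases DNMT3B, with 257 and 129 reads, and DNMT3A, with 572 and 379, were 2.21-fold lower (1.78 to 2.75) and 1.67-fold lower (1.47 to 1.91).

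Of 19 tested intracellular partners of protocadherins 6 were called (31.6%), 3 higher and 3 lower, a share close to the 30.9% of all tested genes. All 19 had at least 100 reads, where 23.2% of all genes were called. CYFIP2, a part of the WAVE complex that drives actin branching, had 3 and 595 reads, a ratio of 179 (60.9 to 870). The kinase FYN had 55 and 194 reads, 3.18-fold higher (2.35 to 4.37), and WASF3, a WAVE protein, had 198 and 336, 1.53-fold higher (1.28 to 1.83). RYK, a Wnt receptor, had 1182 and 609 reads, 2.15-fold lower (1.95 to 2.38), BRK1, also of the WAVE complex, had 2070 and 1228, 1.87-fold lower (1.74 to 2.01), and the focal adhesion kinase PTK2 had 1319 and 945, 1.55-fold lower (1.42 to 1.68).

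Among other cadherin superfamily genes 5 of 11 tested were called (45.5%, against 30.9% of all tested genes), 3 higher and 2 lower. With at least 100 reads the share was 33.3%, against 23.2%. CLSTN2, a calsyntenin, had 14 and 991 reads, 63.8-fold higher (37.9 to 117), and DSC2, a desmosomal cadherin, had 44 and 143, 2.93-fold higher (2.08 to 4.21). CDH1 and CDH2, given above, belong to the same list. Among enzymes that shed or process cadherins 5 of 12 tested were called (41.7%, against 30.9%), 2 higher and 3 lower. With at least 100 reads the share was 36.4%, against 23.2%. ADAM10, which sheds cadherin ectodomains, had 899 and 607 reads, 1.64-fold lower (1.48 to 1.82), and the proprotein convertase PCSK6 had 249 and 109, 2.53-fold lower (2.01 to 3.20). FURIN, another convertase, had 584 and 1124 reads, 1.74-fold higher (1.57 to 1.92), and PSEN2, a catalytic subunit of gamma-secretase, had 150 and 250, 1.5-fold higher (1.22 to 1.85).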

How the data were processed

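RNA was sequenced from 1 CWR22rv1 library of Akt1/2 DKO cells and 1 of control cells. The authors deposited, per gene and library, estimated counts (not all whole) and FPKM, and the submitters' processing notes name fastp 0.20.0, TopHat, Cufflinks, edgeR and GRCh38.p10 without roles. The counting tool, its use of strand and how it shared reads of constant exons are not given in the sources used here. The deposited fold changes and p-values of the authors' own comparison were not used.

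Estimated counts were rounded and scaled by TMM (edgeR 4.0.16, R 4.3.3). Ratios have exact Clopper-Pearson 95% intervals (scipy 1.17.1). 3 reads replaced a count of 0, in medians too, and correspond to 0.306 CPM in control and 0.276 in DKO. Since PCR reads are not independent molecules, intervals and floors cover counting error only. Counts with counting error only (Poisson) were also simulated, with 200 of 13301 genes changed 4-fold. These were drawn only from genes with at least 100 reads in both libraries together. Of them 100% were called, 5.20% of the unchanged genes were called and 95.4% of the intervals held the true ratio. The 100% does not speak for smaller changes or genes with fewer reads, and the simulation held no spread between cultures. Every tested member except PCDH11Y is named with its reads. Folds are given from 100 reads, or from 20 reads where the interval leaves out 1. From the other lists, called genes with at least 100 reads and such an interval are named. CTNNA1, CTNND1, CTCF, RAD21, TAF7 and neighbouring genes were added after their values were seen. The members and lists were chosen with earlier results of these data known. Alternatives were total counts, DESeq2 1.42.0 size factors, upper-quartile factors, FPKM (pseudocount 0.01), other read filters, a 2-fold threshold, a call rule with the interval, and, chosen after seeing the data, unrounded counts and the PCDHB sum without PCDHB2.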

Additional observations from a re-analysis of the deposited data

How the results depend on the processing

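No paired analysis was possible because control and DKO were sequenced as 1 library apiece. Outside the clusters 11 of 19 tested genes were called. This became 18 of 27 with no read filter and a prior count of 1, and 7 of 14 with at least 10 reads in each library. The share of all genes under either of these rules was not computed. Within the clusters it was 32 of 48 (66.7%). When 50 reads were required it became 19 of 28 (67.9%, where 25.7% of all genes were called), so the share hardly moved. At 2-fold it was 19 of 48 (39.6%, where 17.9% of all genes were called). At 2-fold, catenins and junction partners went from 11 to 5 of 24 tested, and intracellular partners from 6 to 3 of 19. Shedding and processing enzymes went from 5 to 2 of 12. Other cadherin superfamily genes went from 5 to 3 of 11, and to 3 of 9 at 50 reads. Fewer genes pass a stricter filter or threshold by construction. The log2 fold change of the summed PCDHB genes was -1.15, but -2.62 in FPKM and -1.34 without PCDHB2, an alternative added with the data in view. The count over all members ranged from 29 of 44 tested to 52 of 79 tested across the alternatives. The median log2 fold change outside the clusters ranged from -0.03 to 0.40 and so changed sign, and that within them from -0.18 to -0.05. The summed PCDHA reads ranged from -0.21 to -0.12 and the summed PCDHG reads from 0.08 to 0.19. Another scaling of the reads shifts all genes by the same step. The median over all genes was 0.006 with TMM and between 0.002 and 0.059 with the other scalings. So small a step could not take any of the 66 named members out of its interval, so their staying within it is no check. FPKM moved 6 of them out of it. In FPKM the sign turned for CDH3 (-0.10), PCDHA13 (-0.09), PCDHA2 and PCDHGA11, the last also with upper-quartile factors, none of which was called. With 1 library per condition the spread between cultures or clones could not be measured, and at under 100 reads a 1.5-fold ratio is common among all genes.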
